A study of Mus musculus with 2 samples.

Results

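Cytosolic ribosomal protein genes encode the protein part of the ribosome that translates nuclear-encoded mRNAs. They were taken as every gene in the deposited gene table whose symbol starts with Rpl (large, 60S, subunit) or Rps (small, 40S, subunit), leaving out symbols with "-ps" and the Rps6k kinases. The rule found 87 of 27998 genes. Of these, 46 are core genes of the large subunit, 31 are core genes of the small subunit, and 10 are paralogs, duplicate copies or genes whose product is no ribosome subunit. In 84 of the 87 a transcript was seen in at least 10% of the cells kept, and the other 3 were *Rpl3l*, *Rpl39l* and *Rpl10l*.

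The cells came from mouse acute myeloid leukemias driven by retroviral *MLL-AF9*, a fusion oncogene, in lineage-depleted bone marrow (BM) transplanted into lethally irradiated recipients. All donors were *Kat2a* Flox/Flox and received pIpC, an interferon inducer, and BM was taken 4 to 6 weeks later. Donors without Cre (Mx1-Cre -/-) gave *Kat2a* WT leukemias, and donors with Mx1-Cre+/-, in which the interferon-responsive *Mx1* promoter drives Cre, gave *Kat2a* KO leukemias. *Kat2a* is a histone acetyltransferase. Terminal BM samples were frozen, thawed and pooled, 5 leukemias for WT and 4 for KO, and sorted live YFP+ cells went into 10x Genomics 3′ libraries, so there was 1 library per genotype and no leukemia can be told apart inside a pool. The libraries are called WT-labelled and KO-labelled, after their labels. With 1 library each, no difference between them could be tested against replicates, and the intervals given cover counting error only. Paired values are given for the WT-labelled library first.

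Values are counts of unique molecular identifiers (UMIs), each standing for 1 captured transcript. The cells kept had at least 500 detected genes, 3866 in the WT-labelled library with 11669427 UMIs and 3545 in the KO-labelled library with 7920256 UMIs, at a median of 2588.5 and 1884 UMIs per cell. Levels are UMIs of a gene per 1000000 UMIs of all kept cells (counts per 1000000, CPM), and as each transcript is counted once at its 3′ end, levels of genes of different length can be compared. *Kat2a* itself had 142 UMIs (12.2 CPM) in the WT-labelled library and 759 UMIs (95.8 CPM) in the KO-labelled library, which goes against the labels. Per the study, the excised locus still gives a transcript that keeps the last exon, so a 3′ count does not check the excision. The labels do not tie barcodes to genotypes, the assignment is that of the study's published code, and every direction between the libraries rests on it. The libraries shared 28 barcode sequences. Transcripts of the mitochondrial genome took 0.374% of UMIs in the WT-labelled library and 0.466% in the KO-labelled library. The 7 markers of primary granule progenitors were all seen in 10% of cells and summed to 17120 and 15224 CPM. The 9 S phase markers summed to 1276 and 1603 CPM and the 9 mitotic markers to 1074 and 1287 CPM. Of the 6 mitotic markers that passed the filter 5 were higher by 1.2-fold, among them *Cdc20* (log2 ratio 0.64), and *Top2a* was lower (-0.85), as were *Mki67* (-1.37) and *Cenpf* (-1.12), which did not pass. The part of these markers in the pooled values was not tested, and values within clusters of cells are given below. The 5 B cell markers summed to 54.3 and 79.0 CPM, and their part in the results was not tested. The 5 T or NK cell markers summed to 197 and 318 CPM, nearly all of it *Nkg7* (2290 and 2512 UMIs), a leading gene of the primary granule progenitor-like cluster described further on, while *Cd3d* had 8 and 2 UMIs and *Cd3e* 3 and 2. The 6 erythroid markers summed to 167 and 445 CPM, although none of them was seen in 10% of cells and *Car1* had 0 UMIs in the WT-labelled library, and their part in the results below was measured only by leaving out the cells that held them.

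A cytosolic ribosome holds 1 copy of nearly every subunit protein, while the stalk proteins P1 and P2 are present in several copies. Ribosomal protein mRNAs are among the most abundant mRNAs of dividing cells, and most begin with a terminal oligopyrimidine (TOP) tract, a run of C and T at the 5′ end through which mTOR signaling controls their translation. Several of the proteins have duties off the ribosome. *Rpl5* and *Rpl11*, with 5S rRNA, bind *Mdm2* and stabilize p53, and loss of 1 allele of some ribosomal protein genes causes Diamond-Blackfan anemia.

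The 30 bases around the start of 8 members are shown for the runs of C and T near the start. They are from genes at the extremes of the comparison and of the *Rps27* family. Each window is from RefSeq (GRCm38.p6) and runs 5′ to 3′ on the gene's strand, with 15 bases before the annotated start and 15 from it on. Its longest run of C or T is in capitals, or the first of these where runs are equally long. Of 77 core members, 57 (74.0%) had a start in the table, which is too few for a statement on the core set.
*Rps6* (chr4:86857353-86857382, minus strand): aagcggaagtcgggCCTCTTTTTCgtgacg
*Rpl15* (chr14:18270972-18271001, minus strand): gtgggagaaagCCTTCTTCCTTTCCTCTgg
*Rpl35* (chr2:39005117-39005146, minus strand): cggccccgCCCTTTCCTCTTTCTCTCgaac
*Rps10* (chr17:27635230-27635259, minus strand): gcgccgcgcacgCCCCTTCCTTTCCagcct
*Rpl39* (chrX:37085208-37085237, minus strand): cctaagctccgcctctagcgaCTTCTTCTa
*Rps27* (chr3:90213634-90213663, minus strand): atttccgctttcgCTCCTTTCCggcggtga
*Rps27rt* (chr9:114982725-114982754, minus strand): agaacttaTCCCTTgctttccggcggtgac
*Rps27l* (chr9:66946071-66946100, plus strand): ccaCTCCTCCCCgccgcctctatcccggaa
The marked run was 17 bases long in *Rpl15* and 18 in *Rpl35*, the core members with the highest ratios between the libraries. It was 8 in *Rpl39*, which had the lowest ratio, 13 in *Rps10*, which had the third lowest, and 10 in *Rps6*. A marked run need not begin at the start. Counted from the annotated start, runs opening with C were 13 bases in *Rpl15*, 11 in *Rpl35*, 10 in *Rps10* and 9 in *Rps6*. They were 7 in *Rps27*, 6 in *Rps27rt*, where that run is not the marked one, and 0 in *Rpl39* and *Rps27l*. Nothing about the ratio can be read from these few windows. *Rps27rt* is a retrogene copy of *Rps27*. RefSeq lists a further start for *Rps27l*, which is not shown.

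The members took 15.3% of all UMIs in the WT-labelled library (95% interval 15.3 to 15.4%) and 12.6% in the KO-labelled library (12.6 to 12.6%), a log2 ratio of KO over WT of -0.28 (-0.29 to -0.28). Core levels in the WT-labelled library spanned 22.8-fold, with a median of 1680 CPM. *Rpl13*, a large subunit protein, was the highest at 5595 CPM in the WT-labelled library and 4474 CPM in the KO-labelled library. *Rps19*, the small subunit protein most often mutated in Diamond-Blackfan anemia, followed at 5345 and 4648 CPM and was the highest in the KO-labelled library. *Rpl32* came next with 5095 and 3733 CPM, then *Rps18* with 4438 and 3504 CPM. The 10 most abundant core members held 28.2% of core UMIs in the WT-labelled library and 28.7% in the KO-labelled library, so the core transcripts were spread over many genes rather than a few.

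At the low end were members outside the core. *Rps19bp1*, a nucleolar protein that binds *Rps19* and is no subunit, had 53.2 CPM in the WT-labelled library and 61.6 CPM in the KO-labelled library. *Rpl7l1*, a nucleolar relative of *Rpl7*, had 133 and 128 CPM, and *Rpl22l1* had 171 and 127 CPM. *Rps21* was the lowest core member at 245 and 186 CPM. The order of the core members was nearly the same in the libraries (Spearman's rho 0.99 over 77 genes, a description across genes, which are not independent replicates).

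**Figure D1:**
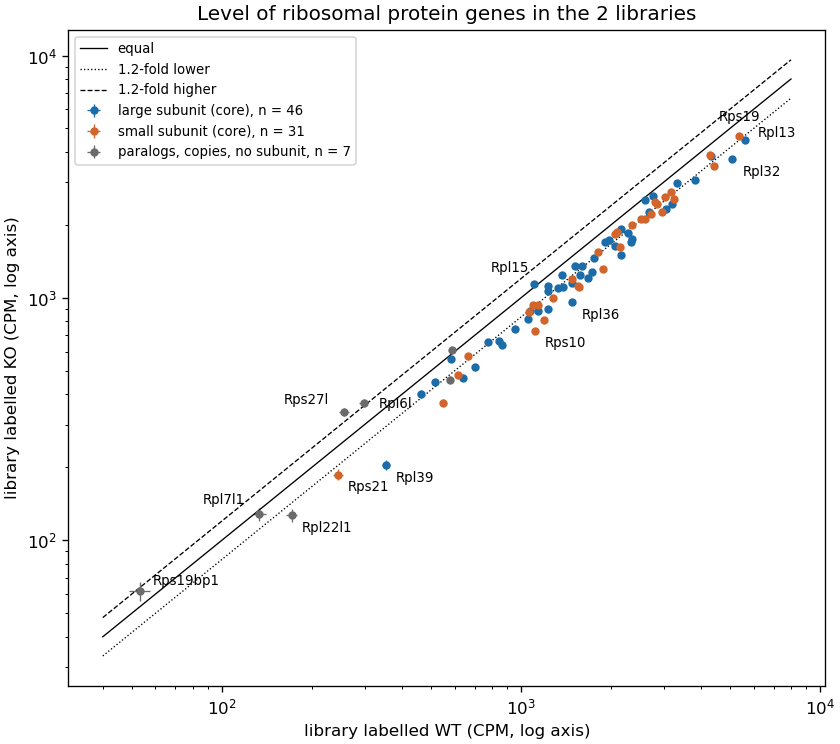
Level of the 84 members seen in at least 10% of kept cells, in CPM on log axes, in the WT-labelled library (x) and KO (y), with 95% counting intervals, mostly smaller than the points. Core members of both subunits lie below the line of equal level except *Rpl15*, and *Rps27l* and *Rpl6l* lie above the 1.2-fold line.

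Gene by gene, 48 of the 84 members were lower in the KO-labelled library by 1.2-fold or more, where 15.5% of all 2737 genes tested were. Only *Rps27l* and *Rpl6l* were higher by that fold, against 23.7% of all genes tested. At 1.5-fold, 3 members were lower (3.43% of all genes) and 0 were higher (3.54% of all genes). The median log2 ratio of the members was -0.29 against 0.07 over all genes tested. Of the 77 core members, 76 had a ratio below 0 with an interval that did not reach 0, and *Rpl15* had a ratio above 0. Among all 2737 genes tested, 1090 had a ratio below 0, whether or not the interval reached 0. In cells matched on total UMIs, described further on, 68 of the 77 had a ratio below 0, and the median of all genes tested was 0.12. The count of all genes below 0 in those cells is not given here, so the 68 have no like background beside them.

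Members of both subunits were among those with the lowest ratios. *Rpl39* (ENSMUSG00000079641, chrX:37082520-37085402, GRCm38), a very small protein of the peptide exit tunnel, had 4124 UMIs (353 CPM) in the WT-labelled library and 1616 UMIs (204 CPM) in the KO-labelled library, a log2 ratio of -0.79 (-0.88 to -0.71). *Rpl36* had 1482 and 962 CPM, a log2 ratio of -0.62 (-0.66 to -0.59). *Rps10*, a protein of the small subunit head, had 1115 and 732 CPM, a log2 ratio of -0.61 (-0.65 to -0.56). These 3 were the members past 1.5-fold. *Rps12* had 551 and 370 CPM (-0.57) and *Rpl37a* had 2166 and 1497 CPM (-0.53). Each of these 5 was lower in 12 of 12 clusters of cells, described further on, as were 57 of all 77 core members. The same count over all genes tested is not given here.

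Some core members differed little over all kept cells. *Rpl15* (ENSMUSG00000012405) had 1109 CPM in the WT-labelled library and 1145 CPM in the KO-labelled library, a log2 ratio of 0.05 (0.01 to 0.09). *Rpl35* had 2599 and 2533 CPM (-0.04) and *Rpl14* had 2764 and 2633 CPM (-0.07). *Rps6*, the target of the S6 kinases, had 4292 and 3892 CPM (-0.14), and no small subunit core member had a higher ratio. In cells matched on total UMIs *Rpl15* was at 0.24, and the last 3 were also above 0, *Rpl35* at 0.05, *Rpl14* at 0.14 and *Rps6* at 0.03. Matched on cluster and total UMIs, *Rpl15* was at 0.12 (0.07 to 0.17) and *Rpl14* at 0.06, while *Rpl35* (-0.02) and *Rps6* (-0.01) were below 0. *Rpl14* and *Rps6* were named after their values were seen.

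**Figure D2:**
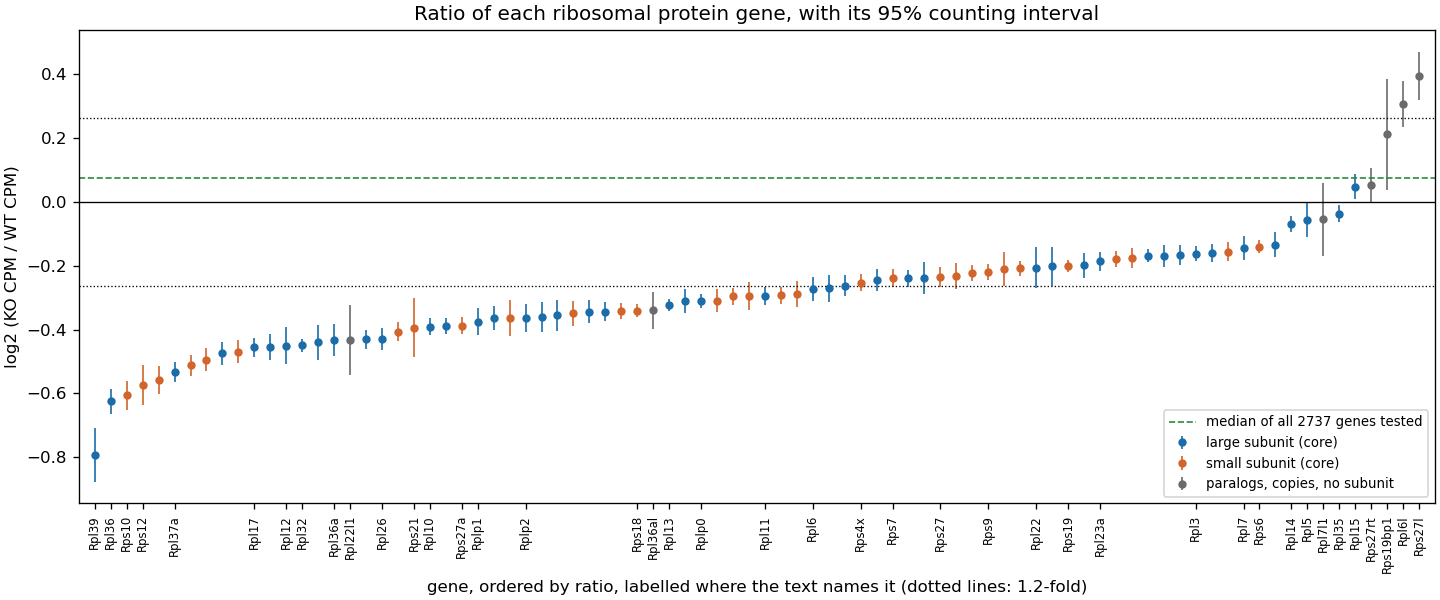
Log2 ratio of CPM, KO-labelled library over WT-labelled library, of each of the 84 members with its 95% counting interval, in order of the ratio, with symbols for the members named in the text. Points from both subunits run from -0.79 (*Rpl39*) to 0.05 (*Rpl15*), below the dashed median of all 2737 genes at 0.07, and the members above it are *Rps19bp1*, *Rpl6l* and *Rps27l*.

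Large subunit core genes took 8.54% of UMIs in the WT-labelled library and 6.97% in the KO-labelled library, a log2 ratio of -0.29 (-0.30 to -0.29). Small subunit core genes took 6.59% and 5.41%, a log2 ratio of -0.28 (-0.29 to -0.28). By gene, 28 of 46 large subunit members and 18 of 31 small subunit members were lower by 1.2-fold or more, where 15.5% of all genes tested were. The ratio of large to small subunit UMIs was 1.295 in the WT-labelled library and 1.289 in the KO-labelled library, a log2 difference of -0.01 (-0.01 to -0.00), which is small beside the ratios of the genes themselves. Across clusters that ratio lay between 1.25 and 1.33 in the WT-labelled library and between 1.21 and 1.32 in the KO-labelled library.

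All 3 genes of the P stalk, the flexible arm that recruits elongation factors, were lower by 1.2-fold or more. Of all genes tested, 15.5% were. *Rplp0*, the base of the stalk, had 3807 CPM in the WT-labelled library and 3069 CPM in the KO-labelled library (log2 ratio -0.31). *Rplp1* had 1144 and 881 CPM (-0.38), and *Rplp2* had 1057 and 822 CPM (-0.36). The partner genes *Rpl5* and *Rpl11* of the 5S particle differed from each other. *Rpl11* had 2281 and 1860 CPM, a log2 ratio of -0.29 (-0.32 to -0.27), while *Rpl5* had 583 and 561 CPM, a log2 ratio of -0.06 (-0.11 to -0.00). The direction of *Rpl5* turned when cells were matched, to 0.23 on total UMIs and to 0.13 (0.05 to 0.20) on cluster and total UMIs.

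Of the 7 proteins that line the rim of the exit tunnel, 5 were lower by 1.2-fold or more, among them *Rpl17* (2334 and 1703 CPM) and *Rpl26* (1729 and 1283 CPM), and *Rpl23a* (1972 and 1734 CPM) and *Rpl35* were not. Of the 9 genes on the Diamond-Blackfan list, 6 were lower by that fold, from *Rps10* at -0.61 to *Rpl11* at -0.29, and the other 3 were *Rps7* at -0.24, *Rps19* at -0.20 and *Rpl5* at -0.06. In the core as a whole 59.7% of genes were lower by that fold, and 15.5% of all genes tested were.

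The 4 core members on the X chromosome had log2 ratios of -0.79 (*Rpl39*), -0.43 (*Rpl36a*), -0.39 (*Rpl10*) and -0.25 (*Rps4x*). *Rpl36a* had 863 CPM in the WT-labelled library and 640 CPM in the KO-labelled library, *Rpl10* had 3060 and 2334 CPM, and *Rps4x* had 2522 and 2116 CPM. *Xist*, the RNA that silences 1 X chromosome in female cells, had 275 and 97.2 CPM, and the median ratio of all 73 tested X-linked genes was 0.01. Whether the mix of sexes in the pools bears on these 4 genes was not tested.

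In the *Rps27* family the paralogs and the parent gene had different ratios. *Rps27* (chr3:90212522-90213651) had 1813 CPM in the WT-labelled library and 1540 CPM in the KO-labelled library, a log2 ratio of -0.24 (-0.27 to -0.20). *Rps27l* (chr9:66946086-66949516), a paralog induced by p53, had 2993 UMIs (256 CPM) and 2670 UMIs (337 CPM), a log2 ratio of 0.39 (0.32 to 0.47). *Rps27rt* (chr9:114982366-114982739) had 588 and 609 CPM, a log2 ratio of 0.05 (-0.00 to 0.10). Of the UMIs of *Rps27* and *Rps27l* together, *Rps27l* held 12.4% (12.0 to 12.8%) in the WT-labelled library and 17.96% (17.3 to 18.6%) in the KO-labelled library, and its part was larger in the KO-labelled library in 12 of 12 clusters.

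The copies of *Rps27* are hard to tell apart by sequence. All 50-base words in the last 300 bases of *Rps27* are also found in transcripts of other genes, *Rps27rt* among them, so how reads were split between them is uncertain. For *Rps27l* the share of such words was 21.9%.

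In the *Rpl22* pair the paralog held a lower share in the KO-labelled library. *Rpl22*, which represses its paralog, had 462 CPM in the WT-labelled library and 401 CPM in the KO-labelled library, a log2 ratio of -0.21 (-0.27 to -0.14), which was 0.06 in cells matched on total UMIs. *Rpl22l1* had a log2 ratio of -0.43 (-0.54 to -0.32). *Rpl22l1* held 27.0% (26.0 to 28.1%) of the pair's UMIs in the WT-labelled library and 24.1% (22.8 to 25.4%) in the KO-labelled library. Across clusters of the WT-labelled library that share ran from 20.8% in cluster 12 to 38.3% in cluster 3, and in the KO-labelled library from 17.2% in cluster 10 to 49.2% in cluster 2. It was higher in the KO-labelled library in 3 of 12 clusters. The cluster shares are given without intervals and rest on fewer UMIs than the pooled shares. Cluster 2 of the KO-labelled library, the source of the 49.2%, held 359556 UMIs over all genes.

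The X-linked *Rpl36a* and its autosomal retrogene *Rpl36al* kept nearly equal proportions. *Rpl36al* had 581 and 459 CPM, a log2 ratio of -0.34 (-0.40 to -0.28), and held 40.2% (39.5 to 41.0%) and 41.8% (40.7 to 42.8%) of the pair's UMIs. The proportions differed more between cell states than between libraries: in the WT-labelled library, *Rpl36al* held 31.5% of the UMIs in cluster 3 and 53.5% in cluster 6, and in the KO-labelled library 36.6% and 54.9%.

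Tissue-restricted paralogs were at or near 0. *Rpl3l*, the heart and skeletal muscle form of *Rpl3*, had 78 UMIs in the WT-labelled library and 37 in the KO-labelled library, beside 38914 and 23605 UMIs of *Rpl3* (3335 and 2980 CPM, log2 ratio -0.16, and 0.01 in cells matched on total UMIs). *Rpl39l*, a testis form, had 7 UMIs in each library. *Rpl10l*, the testis retrogene of *Rpl10*, had 0 UMIs, which allows a level of up to 0.257 CPM in the WT-labelled library and 0.379 CPM in the KO-labelled library (3 counts of each total). *Rpl7l1* had a log2 ratio of -0.06 (-0.17 to 0.06), which was 0.05 in cells matched on total UMIs, and *Rpl7*, with 1373 and 1242 CPM, one of -0.14 (-0.18 to -0.11). *Rps19bp1* had a log2 ratio of 0.21 (0.04 to 0.38).

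*Rpl6l*, the other member higher by 1.2-fold, had 3477 UMIs (298 CPM) in the WT-labelled library and 2919 UMIs (369 CPM) in the KO-labelled library, a log2 ratio of 0.31 (0.24 to 0.38). All of the 50-base words in its last 300 bases are shared with transcripts of other genes, and every such word with *Rpl6*, so its level is uncertain. *Rpl6* had 1332 and 1101 CPM, a log2 ratio of -0.27 (-0.31 to -0.24).

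Gene copies that are no members summed to nearly equal levels. The 16 genes with "-ps" in the symbol summed to 4429 CPM in the WT-labelled library and 4434 CPM in the KO-labelled library, a log2 ratio of 0.00 (-0.02 to 0.02), while the core members summed to 151325 and 123841 CPM. Of the 10 copies that passed the filter, 1 was lower by 1.2-fold and 0 were higher, where 15.5% of all genes tested were lower and 23.7% higher. That copy, *Rps12-ps3*, had 246 and 186 CPM (log2 ratio -0.41), beside -0.57 for *Rps12*, and 94.4% of the 50-base words of the 3′ end of *Rps12* are also found in it. *Rpl13-ps3* had 616 and 713 CPM (0.21) beside -0.32 for *Rpl13*. Core members with at least 50% of such words shared had a median log2 ratio of -0.32 (41 genes), and those with under 5% shared had one of -0.26 (24 genes).

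Some ribosome subunits have symbols that the rule does not catch. The list of these held 3 genes, which took 0.376% of UMIs in the WT-labelled library and 0.356% in the KO-labelled library. Their summed log2 ratio was -0.08 (-0.10 to -0.06). By 1.2-fold 1 of the 3 was lower and 1 was higher, at 0.56, where 15.5% and 23.7% of all genes tested were. *Fau*, a fusion of a ubiquitin-like protein with ribosomal protein S30, had 2288 CPM in the WT-labelled library and 1743 CPM in the KO-labelled library, a log2 ratio of -0.39 (-0.42 to -0.36). *Gnb2l1*, the small subunit scaffold also called Rack1, had 563 and 472 CPM (-0.25). The member *Rps27a*, a fusion of ubiquitin with a small subunit protein, had 2956 and 2260 CPM, a log2 ratio of -0.39 (-0.41 to -0.36).

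For other genes of translation the counts stand beside 15.5% of all genes lower and 23.7% higher by 1.2-fold. Of 7 elongation factor genes 1 was lower by 1.2-fold (*Eef2*, -0.44) and 0 were higher, with *Eef1a1* at -0.26, *Eif5a* at 0.20 and *Eef1e1* at 0.26. Of 29 initiation factor genes that passed the filter 4 (13.8%) were lower and 3 (10.3%) higher, from *Eif3a* at -1.005 and *Eif3c* at -0.56 to *Eif4e* at 0.46 and *Eif2s2* at 0.55. Of 9 further genes whose mRNAs carry a TOP tract, 1 was lower (*Eef2*) and 2 were higher, *Npm1* at 0.35 and *Pabpc1* at 0.52. Of 13 ribosome biogenesis genes that passed, 1 was lower (*Ncl*, -0.49), with *Ebna1bp2* at -0.18, and 3 were higher, among them *Nop10* at 0.51 and *Npm1*. Of 54 mitochondrial ribosomal protein genes that passed, 1 was lower (*Mrpl14*, -0.29), with *Mrpl54* at -0.26, and 16 were higher, up to 0.50 for *Mrpl42* and *Mrpl46*, with a median of 0.20. Whether these shares differ from that of the members was not tested.

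The libraries differed in depth per cell, and the member share differed between depths. In cells under 1000 UMIs (66 and 194 cells) the members took 14.4% and 12.3% of UMIs. In cells with 1000 to 1500 UMIs the members took 11.2% of UMIs in the WT-labelled library and 11.6% in the KO-labelled library, and with 1500 to 2000 UMIs 11.2% and 11.1%. From 2000 to 3000 UMIs the shares were 13.2% and 11.4%, from 3000 to 5000 UMIs 16.2% and 13.7%, and at 5000 UMIs or more 18.6% and 16.5%. The difference between the libraries was thus near 0 or reversed in cells of 1000 to 2000 UMIs (521 and 661 kept cells in the WT-labelled library, 925 and 832 in the KO-labelled library).

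Within clusters the shallow cells did differ. Averaged over the clusters with at least 10 cells of each library in a depth range, the log2 ratio was -0.19 at 1000 to 1500 UMIs (8 of 8 clusters lower) and -0.23 at 1500 to 2000 UMIs (9 of 9 lower), and it lay between -0.27 and -0.19 in the other ranges. With 2786 cells per library matched on total UMIs, the members took 14.1% and 12.7% of UMIs (log2 ratio -0.15), and 22 members were lower by 1.2-fold, where 17.6% of all genes were, and 3 were higher, where 34.1% were. With 1970 cells per library matched on cluster and total UMIs, the shares were 14.95% and 12.9% (-0.21), 33 members were lower, where 15.7% of all genes were, and 2 were higher, where 23.3% were. Without the 51 cells of the WT-labelled library and the 126 of the KO-labelled library that held an erythroid UMI, the log2 ratio was -0.29 and 48 members were lower. A share over all genes was not computed for that set of cells.

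**Figure D3:**
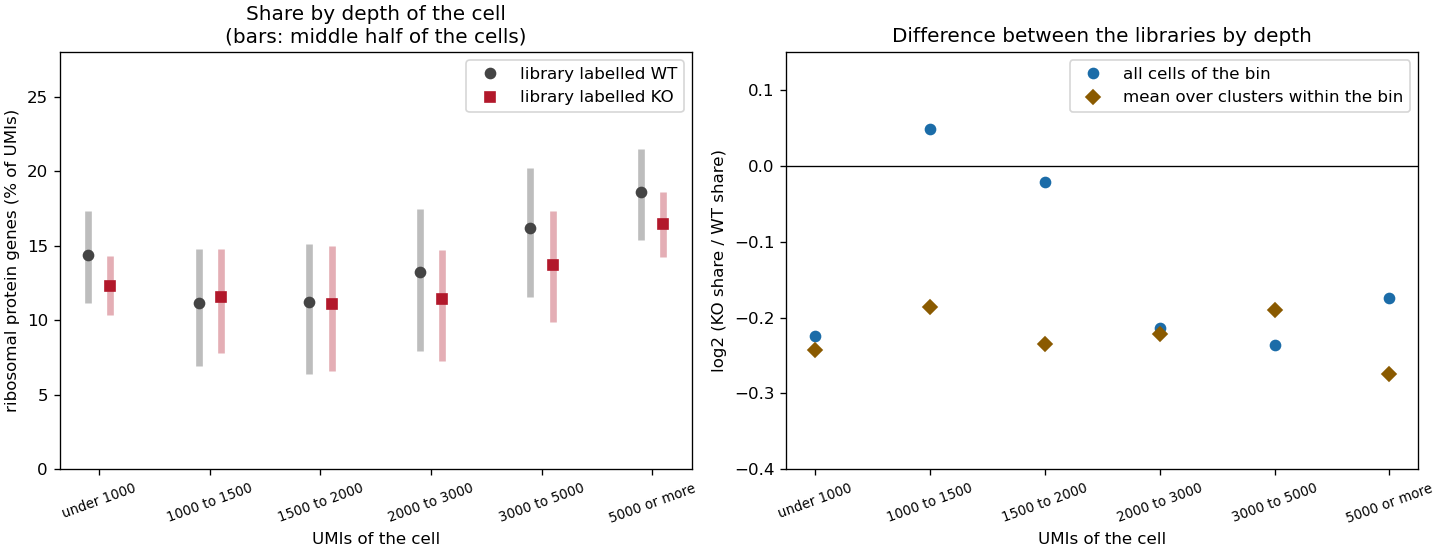
Left, share of UMIs in the members (%) by UMIs of the cell, points for summed UMIs and bars for the middle 50% of cells. Right, log2 ratio of that share, KO over WT, for all cells of a depth range (circles) and averaged over clusters within it (diamonds). The circles reach 0.05 at 1000 to 1500 UMIs while the diamonds stay between -0.27 and -0.19.

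Cells were divided by k-means into 12 clusters on genes that excluded all ribosomal protein genes, and the clusters are numbered by size. The member share differed more between clusters than between libraries. In the WT-labelled library it ran from 6.50% of UMIs in cluster 2, a granulocyte-like cluster led by *Ltf* and *Mmp9*, to 22.7% in cluster 3, led by *Ly6e* and *H2-DMa*, a range of 3.49-fold. In the KO-labelled library it ran from 5.55% in cluster 2 to 18.3% in cluster 10, a range of 3.29-fold. Cluster 10 was led by *C1qbp*, *Srm*, *Dkc1* and *Hspd1*, genes of mitochondria, polyamine synthesis, snoRNP and protein folding, and had 22.1% in the WT-labelled library.

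Clusters with granulocyte or mitotic genes lay at the low end. Cluster 11, granulocyte-like with stefin genes and *S100a9*, had 9.74% in the WT-labelled library and 8.40% in the KO-labelled library. Cluster 4, led by mitotic genes such as *Ube2c* and *Ccnb1*, had 9.38% and 7.69%. Cluster 5, which joined S phase genes such as *Rrm2* and *Tyms* with the granule genes *Camp* and *Ngp*, had 10.7% and 8.11%. Proliferation genes did not by themselves go with a low share, as cluster 9, led by *Elane* and *Aurkb*, had 16.7% and 12.9%, and cluster 12, with *Irf8* and *Top2a*, had 17.5% and 13.4%.

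Other clusters were intermediate or high. The primary granule progenitor-like cluster 7, led by *Mpo* and *Elane*, had 20.2% in the WT-labelled library and 17.2% in the KO-labelled library. The monocyte or macrophage-like cluster 8, with *Irf8* and *Ms4a6c*, had 18.5% and 14.4%, and the other cluster of that kind, cluster 6 with *Ccl6* and *Apoe*, had 14.3% and 12.2%. Cluster 1, led by *Gal* and *Fcnb*, had 14.1% and 11.5%. The lowest share was in cluster 2 in both libraries and the highest in cluster 3 in the WT-labelled and cluster 10 in the KO-labelled library (Pearson's r of the shares 0.98 over 12 clusters, a description, as the clusters were made on cells of both libraries together).

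The share was lower in the KO-labelled library in 12 of 12 clusters, by log2 ratios from -0.47 in cluster 3 to -0.21 in cluster 11. Matched on UMIs within each cluster it was also lower in 12 of 12, from -0.33 in cluster 3 to -0.11 in cluster 4. The KO-labelled library was the shallower in each cluster, with medians of 1294.5 against 1983 UMIs in cluster 3 and 4282 against 5007.5 UMIs in cluster 10. Of the 77 core members, 57 were lower in 12 of 12 clusters and 75 in at least 10, and *Rpl15* was lower in 5 and *Rpl5* in 8. The same counts over all genes tested are not given here, so these have no background beside them.

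**Figure D4:**
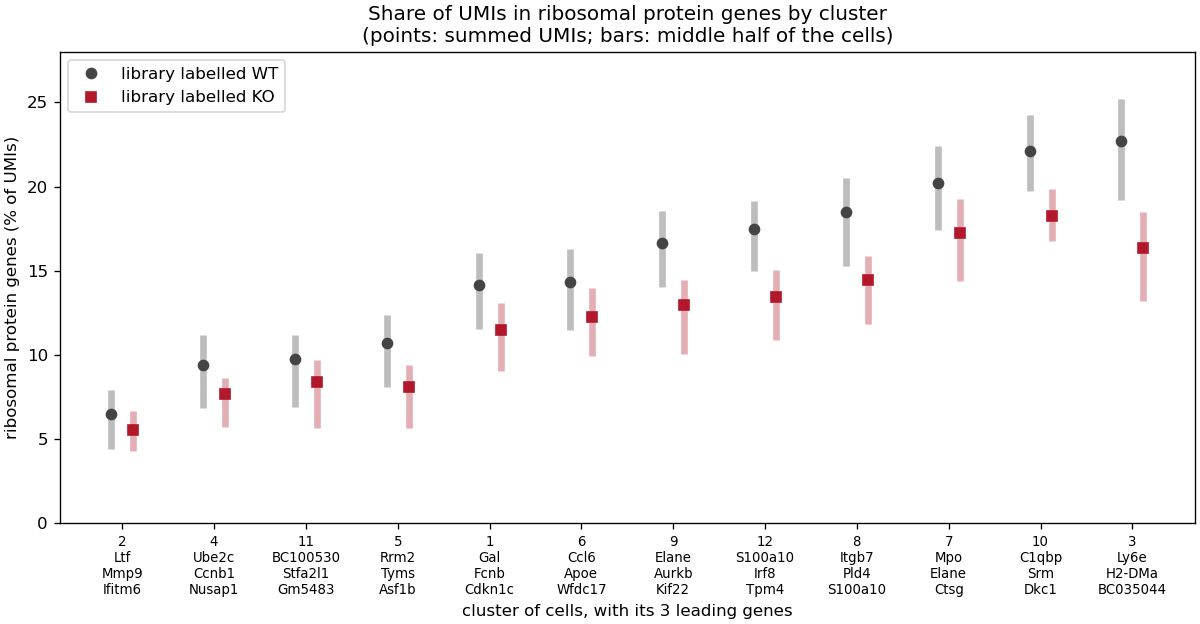
Share of UMIs in the members (%) in each of 12 clusters, ordered by the share in the WT-labelled library and named by their 3 leading genes, points for summed UMIs and bars for the middle 50% of cells. The share rises from 6.50% in cluster 2 to 22.7% in cluster 3 in the WT-labelled library, and the square of the KO-labelled library lies under the circle in each cluster.

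The makeup of the ribosomal protein transcripts also differed between cell states. For each gene its part of all core UMIs in a cluster was set against its part in the whole library, on the log2 scale. The range of this value over the 12 clusters had a median of 0.46 over core members in the WT-labelled library and 0.52 in the KO-labelled library, and it was lowest, at 0.16, for *Rps7* in the WT-labelled library. Profiles of the libraries were alike for most genes: Pearson's r over the 12 clusters was at least 0.5 for 63 of 77 core members, with a median of 0.79, as a description. In 15 core members the range was at least 0.6 in both libraries, and those named next were chosen for this after their values were seen.

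*Rps9*, a small subunit protein of the mRNA entry channel, had the widest range of the core members in the WT-labelled library, 1.14. Its range was 1.07 in the KO-labelled library, with r 0.97, and *Rpl39* had the widest there, 1.46. Relative to the other core members *Rps9* was high in granulocyte-like cluster 2 (0.83 and 0.79) and in cluster 6 (0.59 and 0.72) and low in cluster 9 (-0.31 and -0.24). Even so its level in CPM was lower in cluster 2 than in the library as a whole, 2395 CPM against 3182 CPM in the WT-labelled library. *Rps27* showed the same outline, at 0.67 and 0.58 in cluster 2, 0.71 and 0.60 in cluster 6 and -0.40 and -0.36 in cluster 5, and its near-identical copy *Rps27rt* followed it with 0.63 and 0.71, 0.71 and 0.67, and -0.38 and -0.42.

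Other members ran against this outline. *Rpl36a* was at -0.78 and -0.68 in cluster 2, *Rpl3*, which forms part of the peptidyl transferase center, at -0.56 and -0.57, and *Rpl5* at -0.48 and -0.36. In cluster 10 *Rpl5* was at 0.29 and 0.36 and *Rpl12*, a protein at the stalk base, at 0.24 and 0.27. *Rpl10*, needed for the last step of 60S maturation, instead went with the outline in clusters 2 (0.24 and 0.36) and 6 (0.41 and 0.30). It was low in mitotic cluster 4 (-0.49 and -0.41). The most abundant member *Rpl13* moved little, within a range of 0.21 in each library. *Rps27l* had its highest relative part in cluster 5 of the WT-labelled library (0.43) and in cluster 10 of the KO-labelled library (0.47). It was low in cluster 6 (-0.80 and -0.68). As a level, *Rps27l* had 618 UMIs (429 CPM) and 787 UMIs (678 CPM) in cluster 10, and 94 UMIs (137 CPM) and 57 UMIs (205 CPM) in cluster 6.

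**Figure D5:**
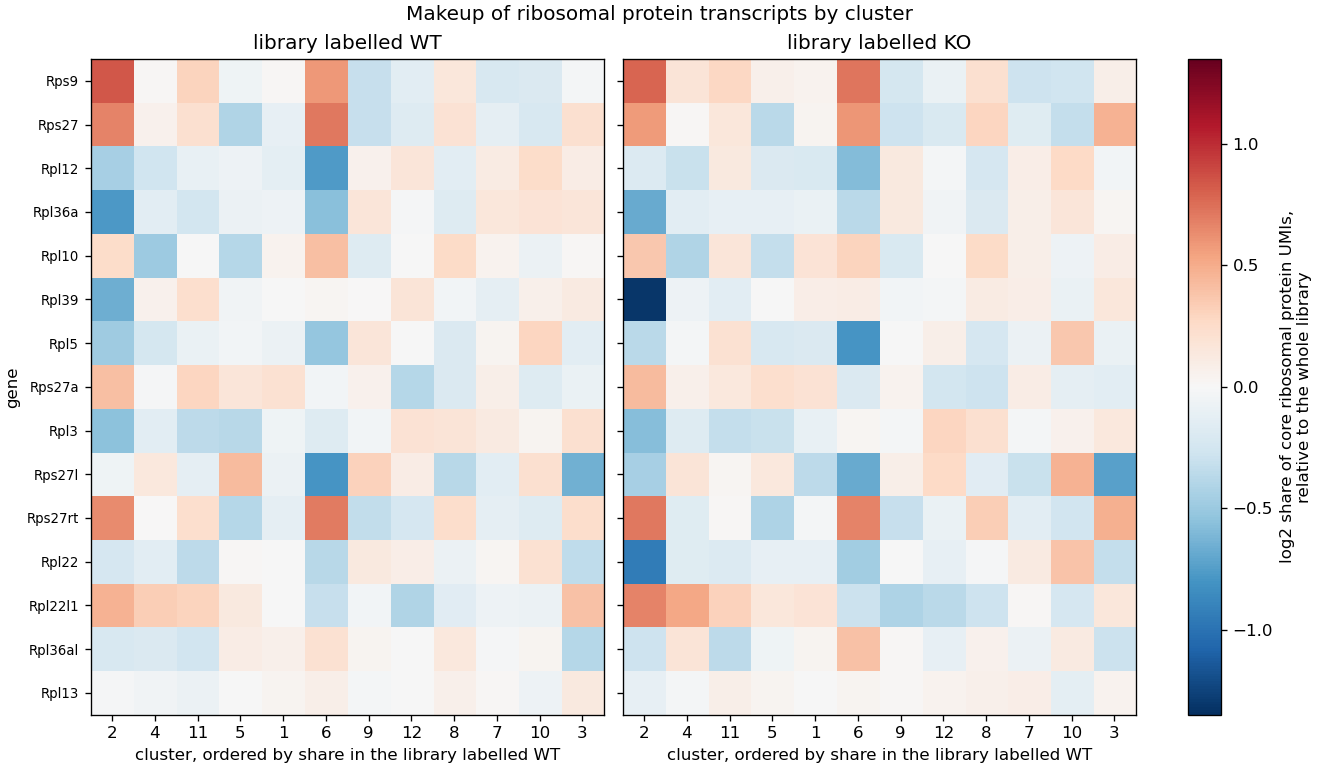
Part of core ribosomal protein UMIs held by each of 15 members named in the text in each cluster, log2 relative to the whole library (red above, blue below), for the libraries side by side. *Rps9*, *Rps27* and *Rps27rt* are red in clusters 2 and 6 of both libraries, and *Rpl36a* and *Rpl5* are blue there.

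Single cells spread far more than counting error allows. The share per cell had a median of 13.9% in the WT-labelled library, with 5% of cells under 4.57% and 5% over 24.6%, and a median of 11.6% in the KO-labelled library, with limits of 4.69% and 20.3%. Its SD was 6.29 percentage points in the WT-labelled library and 4.96 in the KO-labelled library, where counting alone gives 0.685 and 0.753. Differences between clusters made up 68.7% and 60.7% of the variance. Large and small subunit shares went together over cells, with Pearson's r of 0.96 and 0.91, and of 0.87 and 0.78 after the cluster means were taken off. These are descriptions over cells that share a library, a total and a depth.

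When each cell was thinned to 1000 UMIs, the CV (SD over mean, over cells) of the core members had a median of 0.974 in the WT-labelled library and 1.09 in the KO-labelled library, and was higher in the latter for 76 of 77 core members, against 55.5% of the 2737 genes tested. The exception was *Rpl15*, at 1.14 and 1.10. *Rps10* had the largest log2 ratio of CV among core members, 0.47, at 1.16 and 1.60. The members' mean levels moved the opposite way in the same cells, and the part of the lower mean in the higher CV was not tested.

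Cells with a *Kat2a* UMI after thinning had a higher member share in either library, 17.5% ± 5.74 (SD over 50 cells) against 13.97% ± 6.36 in the WT-labelled library, and 14.04% ± 4.97 (224 cells) against 11.8% ± 5.08 in the KO-labelled library. These differences are smaller than the SD over cells, and the clusters of the cells were not balanced.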

How the data were processed

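The pooled 10x Genomics 3′ libraries, 1 for each *Kat2a* genotype, lie in 1 matrix and were told apart by the number ending each barcode, 1 for the KO-labelled library and 2 for the WT-labelled library, as in the study's published analysis code, which takes barcodes with 1 as Cre-positive. The labels do not state this. The authors deposited raw UMI counts per gene and cell from Cell Ranger. The submitters' processing notes give Cell Ranger 1.3.1 and mm10, while the study's methods give another version. Multimapped reads and near-identical copies are limits that counts cannot settle.

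At a minimum of 500 detected genes, 7411 cells remained, and the 2737 genes found in 10% or more of these were tested. Levels are summed UMIs per 1000000. A gene was called lower or higher at 1.2-fold. Intervals are 95%, exact Poisson for levels and exact binomial for shares and ratios, and cover counting error only. With 1 library per genotype no p-value was computed. Doublets were kept, with the 5% of cells with most UMIs left out as an alternative. Clusters came from k-means (12 clusters, 10 starts, 20 principal components, 783 variable genes without ribosomal protein genes) with scikit-learn 1.9.0, and took a name only with at least 3 raised markers and 2 among the 10 leading genes. Matching used equal numbers of cells per bin of UMIs. Thinning drew 1000 UMIs per cell without replacement which 66 cells (WT) and 194 cells (KO) were too shallow for. Positions and lengths are GENCODE M21 (GRCm38), matched on gene identifiers. Code was tested on simulated data.

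Named members were the 5 highest and 5 lowest levels, the 6 lowest and 6 highest ratios, the P stalk, the 5S particle, X-linked members and paralog pairs. *Rps4l* is not analysed here, and some genes that these rules name are not reported here. From lists of other genes, the 2 highest and 2 lowest ratios were named. The members and lists were chosen with earlier results of these data known.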

Additional observations from a re-analysis of the deposited data

Results flagged for a closer look

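Cells with under 500 detected genes, used only in the alternative with every deposited cell, held ribosomal protein transcripts above the limit that a count of 0 allows. The members took 6.33% (6.23 to 6.43%) of the UMIs of 203 such cells in the WT-labelled library and 6.53% (6.47 to 6.59%) of the UMIs of 695 in the KO-labelled library. At a median of 1063 and 907 UMIs, these cells had a share about as low as that of granulocyte-like cluster 2 and under the shares of kept cells with less than 1000 UMIs, 14.4% and 12.3%.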

How the results depend on the processing

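No paired analysis was possible because each genotype had 1 library, and so no replicate could be left out. The summed and median log2 ratios kept their sign under every alternative run. Ratios of single members did not: in cells matched on total UMIs *Rpl5*, *Rpl14*, *Rpl22*, *Rpl35*, *Rpl3*, *Rpl4*, *Rps3a1*, *Rps6* and *Rpl7l1* turned from below to above 0, from 0.01 for *Rpl3* to 0.23 for *Rpl5*, and matched on cluster and UMIs *Rpl5* (0.13), *Rpl14* (0.06) and *Rpl7l1* (0.06) were above 0 and *Rps27rt* (-0.01) below. Given in the order of all members, large subunit, small subunit and median member, they were -0.32, -0.33, -0.32 and -0.33 with every deposited cell, -0.24, -0.25, -0.24 and -0.24 in cells with 1000 or more genes, -0.15, -0.15, -0.15 and -0.16 in cells matched on UMIs, -0.23, -0.24, -0.23 and -0.25 after thinning, and -0.23, -0.24, -0.23 and -0.24 as means over cells. They were -0.33, -0.34, -0.33 and -0.34 with the members left out of the denominator, -0.31, -0.32, -0.31 and -0.33 with the KO-labelled library reweighted to the other's cluster shares, and -0.21, -0.22, -0.21 and -0.20 matched on cluster and UMIs. Without the 5% of cells with most UMIs the first 3 were -0.30, -0.31 and -0.30, and without cells with an erythroid UMI the first 2 were -0.29 and -0.30. Matching on cluster and UMIs and leaving out cells with an erythroid UMI were chosen after seeing the data. The large to small ratio stayed within its interval in all of them.

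The count of lower members, 48, became 22 when cells were matched on UMIs and 3 at 1.5-fold, and lay between 33 and 57 otherwise. The count of higher members, 2, became 1 with the members left out of the denominator and 0 at 1.5-fold. The range of the share over clusters was 3.17-fold and 2.91-fold (WT, KO) with 8 clusters, 3.93-fold and 3.54-fold with 16, and 3.61-fold and 3.18-fold with the members among the clustering genes. The cause of these shifts was not tested beyond what each setting leaves out. Depth limits the rare paralogs: *Rpl3l*, *Rpl39l* and *Rpl10l* had too few UMIs for a ratio.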

Other observations

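Among core members the ratio between the libraries moved with length. The 25 genes with the shortest coding sequence, 75 to 399 bases (*Rpl41* the shortest), had a median log2 ratio of -0.36, with 18 lower by 1.2-fold. The 27 in the middle had a median of -0.29 and 17 lower, and the 25 longest, 582 to 1257 bases (*Rpl4* the longest), a median of -0.24 and 11 lower. Of all genes tested, 15.5% were lower by that fold. In cells matched on total UMIs the medians were -0.22, -0.14 and -0.11. Spearman's rho of the ratio with coding length was 0.36 over 77 genes, and 0.20 with the level in the WT-labelled library. These are descriptions across genes, which are not independent replicates.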
